A study of Homo sapiens with 4 samples.

Results

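Chemokine transcripts were compared between AGS cells, a human gastric adenocarcinoma line, that were wild-type for PRMT6 (control, 2 arrays) and AGS cells carrying a PRMT6 knockout (2 arrays). PRMT6 is an arginine methyltransferase that acts on histone H3. The knockout cells were made with 1 guide in lentiCRISPR v2, puromycin selection and limiting dilution, so they are clonal; which clone lies behind each array, and what vector the controls carried, the labels do not say. Nor do the labels say that arrays of a group came from separate cultures, so the spread between them may be technical. The genes were 6 CXC chemokines of the neutrophil-attracting kind (CXCL1, CXCL2, CXCL3, CXCL5, CXCL6 and CXCL8), CXCL10, CXCL16, CCL2 and CCL20. Every probe set annotated to exactly 1 of these 10 genes was taken, which gave 15 of the 54613 probe sets on the array.

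Chemokines are small secreted proteins that guide leukocytes by binding G protein-coupled receptors. CXCL1, CXCL2, CXCL3, CXCL5, CXCL6 and CXCL8 (interleukin-8) bind CXCR2 and recruit neutrophils. CXCL10 is induced by interferons and draws activated T cells through CXCR3, CCL2 draws monocytes through CCR2, and CCL20 draws CCR6-bearing lymphocytes and dendritic cells. CXCL16 is made as a membrane protein that ADAM10 and ADAM17 can shed. Many of these genes are induced through NF-kB in epithelial cells, and CXCL8 induction also uses AP-1 and C/EBP factors.

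The region upstream of the start site is shown for the 5 genes with the largest differences, because genes that carry the same NF-kB letters differed in direction. RefSeq promoters (GRCh38.p14) were matched for 8 of the 10 genes; CCL2 and CXCL16 are named only. Capitals mark matches, on either strand, to the NF-kB motifs GGAATTTCC and GGGACTTCC, the AP-1 motif TGACTCA, the C/EBP core TTGCAA, the C/EBP-ATF motif TTGCATCA and the interferon-response motif ISRE, searched as 2 GAAA runs with 2 bases of any kind between them. No marked matches overlap each other. The windows end 1 base before the start site and are written 5′ to 3′ on the coding strand: CXCL8 at chr4:73740419-73740568 (plus strand), CXCL1 at chr4:73869283-73869392 (plus), CXCL2 at chr4:74099196-74099305 (minus), CXCL3 at chr4:74038690-74038799 (minus) and CXCL10 at chr4:76023498-76023727 (minus).
CXCL8: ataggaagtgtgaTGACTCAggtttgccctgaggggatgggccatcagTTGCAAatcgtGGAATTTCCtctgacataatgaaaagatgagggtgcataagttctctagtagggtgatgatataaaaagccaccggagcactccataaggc
CXCL1: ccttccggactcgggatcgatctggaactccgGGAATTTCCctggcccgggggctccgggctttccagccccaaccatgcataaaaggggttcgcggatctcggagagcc
CXCL2: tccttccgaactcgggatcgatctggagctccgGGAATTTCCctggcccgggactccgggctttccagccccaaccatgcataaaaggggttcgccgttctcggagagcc
CXCL3: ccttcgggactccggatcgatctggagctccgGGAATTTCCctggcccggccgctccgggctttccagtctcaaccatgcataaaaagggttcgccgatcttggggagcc
CXCL10: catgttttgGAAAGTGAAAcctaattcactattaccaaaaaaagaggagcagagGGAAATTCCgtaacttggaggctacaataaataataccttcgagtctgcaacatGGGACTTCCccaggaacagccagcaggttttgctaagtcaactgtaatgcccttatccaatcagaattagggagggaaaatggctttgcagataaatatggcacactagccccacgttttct

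The NF-kB letters GGAATTTCC lay in the promoters of all 6 CXCR2 ligands searched, against 0.461% of 35116 promoters of the same 300 bases (250 before and 50 after the start). Counted from the start site, the match spanned -91 to -83 in CXCL8, -78 to -70 in CXCL1, -77 to -69 in CXCL2, -78 to -70 in CXCL3, -90 to -82 in CXCL5 and -89 to -81 in CXCL6. CXCL10 held it on the opposite strand at -176 to -168, and GGGACTTCC (0.917% of promoters) at -122 to -114. Of the 8 promoters, CXCL8 was the one with TGACTCA (-137 to -131), letters found in 4.95% of all promoters. TTGCAA (5.51%) lay in CXCL8 at -102 to -97 and in CCL20 at -230 to -225. The ISRE (3.57%) lay in CXCL10 at -221 to -212, and TTGCATCA (0.866%) in none of the 8. Over 250 bases upstream, aligned end to end, CXCL1 was 81.4% identical to CXCL3 and 70.1% to CXCL2, and CXCL5 was 85.3% identical to CXCL6. CXCL8 was 43.9% identical to CXCL1. Pairs with CXCL10 gave 41.9% (CXCL1) to 52.7% (CXCL8), a range that holds this value. These matches describe letters in a window and not sites in use.

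In the knockout cells CXCL8 was lower by 5.41-fold and 6.83-fold on its 2 probe sets. CXCL2 (5.04-fold on its brightest probe set), CXCL10 (3.22-fold), CXCL3 (1.82-fold), CXCL1 (1.65-fold) and CCL20 (1.44-fold) were higher. The dimmer CXCL2 probe sets gave smaller rises of 2.39-fold and, not past the test, 1.26-fold. CXCL5, CXCL6, CXCL16 and CCL2 did not pass the test. By limma over all 54613 probe sets, at an adjusted p below 0.05, 6 of the 15 probe sets were higher and 2 lower. Across the array 13.1% of probe sets were called, 6.68% higher and 6.38% lower. With the brightest probe set of each gene, 5 of the 10 genes were higher and 1 lower, where 24.0% of 19775 genes were called (12.4% higher, 11.5% lower). The median difference of the 15 probe sets was 0.24 on the log2 scale, beside 0.00 for all probe sets. Knockout arrays lay above both control arrays in 9 of the 15 and below both in 2, where 52.4% of all probe sets showed no overlap (26.9% above, 25.5% below); by gene the arrays lay above in 6 of 10 and below in 1, against 58.2% of all genes without overlap. Setting the arrays to equal means of 10 reference genes moved the median of all probe sets to -0.25, and 14.1% instead of 51.1% of called probe sets were then higher.

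With 2 arrays against 2, an exact two-sided permutation test of a single gene cannot go below p = 0.333. Every call thus rests on limma's model of the spread. It combines a probe set's own spread (2 residual degrees of freedom) with the spread shared across probe sets (3.04 degrees of freedom). With any 1 array left out, limma called 0 of the 54613 probe sets, and so none of the 15, although 8 or 9 of the 15 had an unadjusted p below 0.05 (9786 to 13946 of all probe sets did). In the fit of 1 probe set per gene, where 570 genes were called without knockout 1, 508 without knockout 2, 2629 without control 1 and 2226 without control 2, CXCL8, CXCL2 and CXCL10 passed in all 4 of these fits (adjusted p 0.017 to 0.034). CXCL3 did not pass without knockout 1 (adjusted p = 0.052) or knockout 2 (0.056), and CXCL1 and CCL20 did not pass without control 2 (0.056 and 0.070), knockout 1 (0.097 and 0.16) or knockout 2 (0.13 and 0.15).

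**Figure D1:**
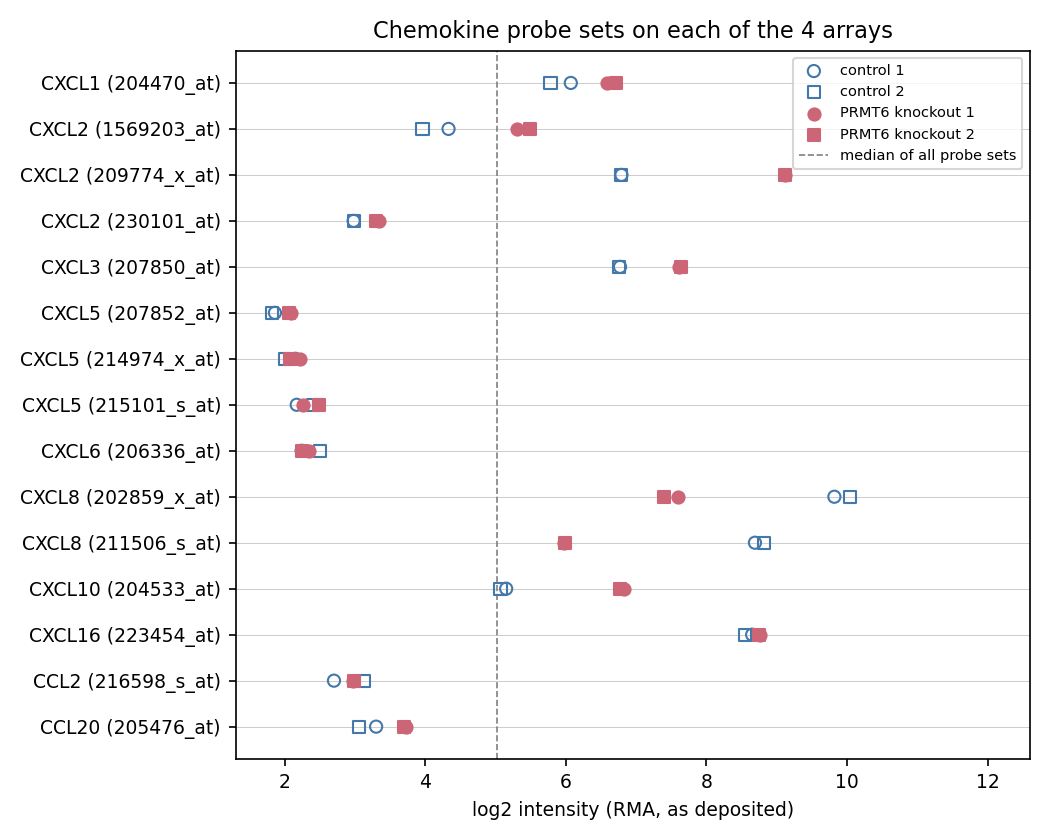
Log2 intensity (horizontal axis, as deposited after RMA) of the 15 chemokine probe sets on each of the 4 arrays, with control arrays as open and knockout arrays as filled symbols and the median of all probe sets (5.02) as a dashed line. Both CXCL8 probe sets lie lower in the knockout arrays, and the CXCL2, CXCL3, CXCL1 and CXCL10 probe sets lie higher.

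CXCL8, the main neutrophil attractant of epithelial cells, had 2 probe sets. On 202859_x_at the control arrays read 9.82 and 10.04 and the knockout arrays 7.59 and 7.40 on the log2 scale. On 211506_s_at they read 8.69 and 8.82 against 5.98 and 5.99. Both control arrays lay above both knockout arrays on each probe set. The differences were -2.43 (SE 0.13, 95% confidence interval -2.76 to -2.11, adjusted p = 0.0019) and -2.77 (SE 0.09, -3.01 to -2.53, adjusted p = 0.0010; limma). The _x_at and _s_at endings are the manufacturer's marks for probe sets that may also read related transcripts, and CXCL8 had no probe set without one. In the knockout cells 79.2% and 64.0% of all probe sets were still dimmer than these, against 95.1% and 88.9% in control cells.

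CXCL2, also called MIP-2 alpha, was read by 3 probe sets that differed in size. On 209774_x_at the control arrays stood at 6.79 and 6.78 and both knockout arrays at 9.12, a difference of 2.33 (SE 0.08, 2.12 to 2.55, adjusted p = 0.0010). On 1569203_at, which has no shared-probe mark, the control arrays stood at 4.33 and 3.96 and the knockout arrays at 5.31 and 5.49, a difference of 1.25 (SE 0.15, 0.86 to 1.65, adjusted p = 0.011). The third, 230101_at, stood at 2.98 on both control arrays and at 3.34 and 3.30 on the knockout arrays. Its difference of 0.33 (0.12 to 0.55) had an adjusted p of 0.068 and did not pass. Knockout arrays lay above control arrays on all 3, but the confidence intervals of the 3 differences did not overlap. Averaged over its probe sets, CXCL2 was higher by 1.31 (adjusted p = 0.00038).

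CXCL3, a close paralog of CXCL2, read 6.77 and 6.75 on the control arrays and 7.61 and 7.64 on the knockout arrays of its 1 probe set. The rise was 0.87 (SE 0.08, 0.65 to 1.08, adjusted p = 0.0069). CXCL1, known as GRO alpha, read 6.07 and 5.78 in control cells and 6.58 and 6.71 in knockout cells. Its control arrays differed more from each other than those of CXCL3, and its rise was 0.72 (SE 0.13, 0.39 to 1.06, adjusted p = 0.028).

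CXCL5 and CXCL6, the remaining CXCR2 ligands, were dim on every probe set. The 3 CXCL5 probe sets read 1.82 to 2.40 in control cells and 2.06 to 2.48 in knockout cells, and the CXCL6 probe set 2.24 and 2.50 against 2.34 and 2.25. At most 5.66% of probe sets were dimmer than any of these. The CXCL5 differences were 0.24 (0.02 to 0.45, adjusted p = 0.16), 0.07 (-0.21 to 0.34) and 0.09 (-0.25 to 0.43), and that of CXCL6 was -0.07 (-0.38 to 0.23). On 207852_at of CXCL5 the arrays of the groups did not overlap, while on the other two CXCL5 probe sets and that of CXCL6 they did. No detection calls were used here, so it is not known whether these readings exceeded background.

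**Figure D2:**
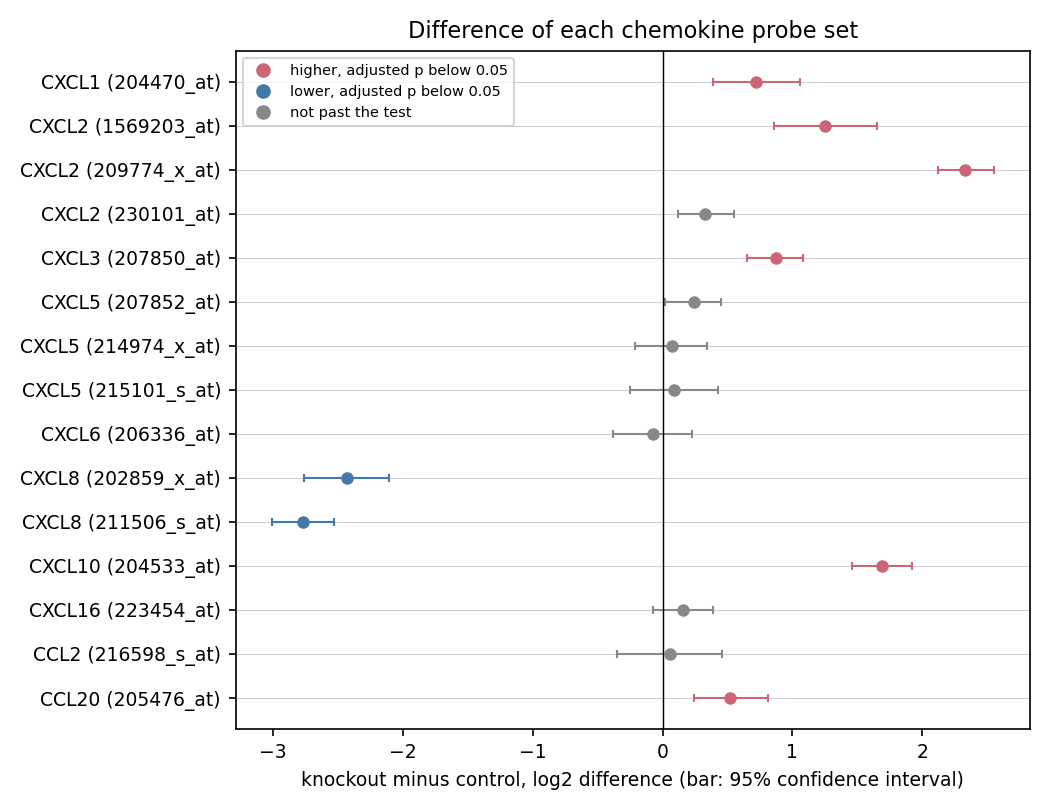
Knockout minus control difference on the log2 scale (horizontal axis) of each of the 15 chemokine probe sets, with 95% confidence intervals from limma as bars and colour giving the call. The CXCL8 intervals lie between -3.01 and -2.11, and the 6 probe sets called higher lie above 0.

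CXCL10, the interferon-induced ligand of CXCR3, read 5.15 and 5.07 on the control arrays and 6.82 and 6.77 on the knockout arrays. The arrays of each group lay close together and the rise was 1.69 (SE 0.09, 1.46 to 1.92, adjusted p = 0.0020). CXCL10 moved from a reading above 51.6% of probe sets to one above 72.8%.

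CXCL16, the shed ligand of CXCR6, read 8.65 and 8.55 in control cells and 8.76 and 8.75 in knockout cells. Both knockout arrays lay above both control arrays, but the difference of 0.16 (-0.07 to 0.39, adjusted p = 0.35) did not pass the test and was -0.09 under reference gene scaling. CCL2, the monocyte attractant, was dim at 2.70 and 3.13 against 2.97 and 2.98, with knockout arrays inside the range of the control arrays and a difference of 0.06 (-0.35 to 0.46). CCL20, the ligand of CCR6, was dim too, at 3.30 and 3.06 against 3.72 and 3.69. Its rise of 0.52 (SE 0.11, 0.24 to 0.81, adjusted p = 0.045) was the weakest call, and was lost when the arrays were rescaled to 10 reference genes (0.27, adjusted p = 0.11).

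CXCL8 and CXCL2 lie at opposite ends of the chromosome 4 cluster that holds the CXCR2 ligands. In the gene order of RefSeq, CXCL8 is followed by CXCL6, PF4V1, CXCL1, PF4, PPBP, CXCL5, CXCL3 and CXCL2. In the fit of 1 probe set per gene the platelet chemokine genes between them, PF4V1 (0.20), PF4 (0.04) and PPBP (0.13), did not pass. The gene before CXCL8, the RAS-association protein RASSF6, rose by 1.21 (SE 0.08, adjusted p = 0.0011), from 5.67 and 5.59 to 6.86 and 6.82. The gene after CXCL2, the mitochondrial folate enzyme MTHFD2L, rose by 1.21 (SE 0.12, adjusted p = 0.0032) on its brightest probe set and by 0.43 (adjusted p = 0.015) averaged over its probe sets, and the EGF family ligand BTC farther on rose by 0.89. Of the 13 measured coding genes from RASSF6 to BTC, CXCL8 was thus the 1 called lower, beside 6 called higher. Over all genes 11.5% were called lower and 12.4% higher. Both end genes of this stretch were called higher, so the split depends on where the ends were set. AFP, AFM and PARM1, listed as lying beside the clusters but outside this stretch, did not pass, and AFM was dim (mean reading 2.55). Further along the chromosome, CXCL10 lies between CXCL9 and CXCL11, and all 3 were higher. SDAD1 (0.11), NUP54 (0.07) and ART3 (0.01) did not pass, and ART3 was dim, with a mean reading of 2.23. NAAA, a hydrolase of fatty acid amides beside that cluster, rose by 0.78, or 0.47 averaged over its probe sets (adjusted p = 0.0087). Of 12 measured genes listed as lying beside the clusters, 4 were higher (33.3%, against 12.4% of all genes higher and 24.0% called either way) and the other 8 did not pass; 0 were lower in limma, also at an unadjusted p below 0.05. Without either knockout array RASSF6 was the 1 member of that list still called.

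**Figure D3:**
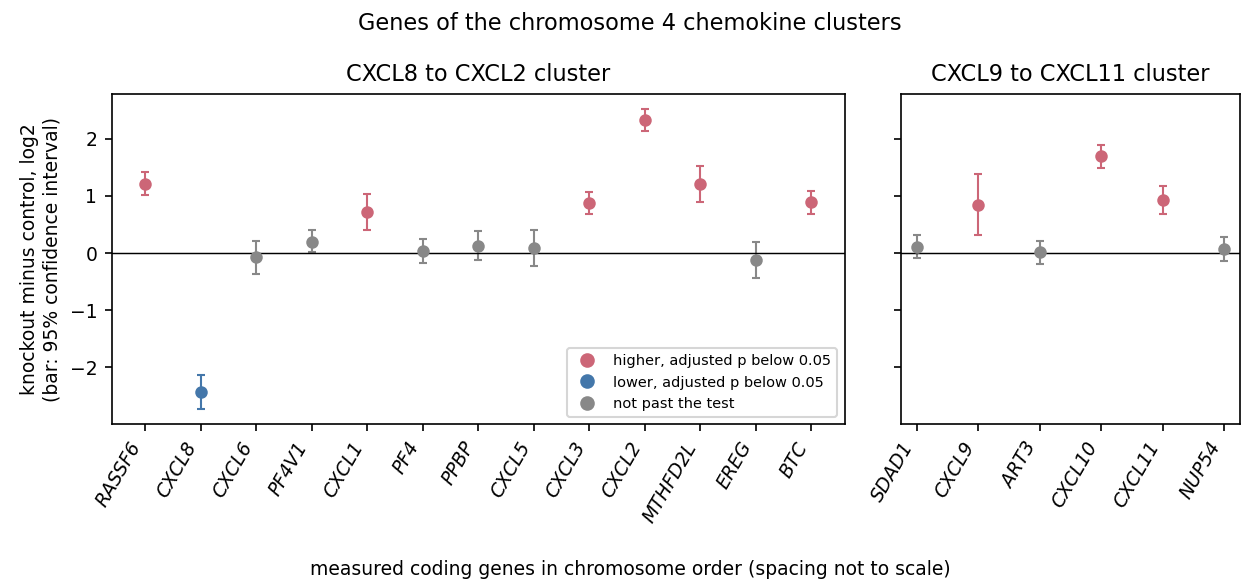
Knockout minus control log2 difference (vertical axis, 95% confidence interval as bars) of the measured protein-coding genes of the chromosome 4 chemokine clusters and their neighbours, in RefSeq gene order with spacing not to scale. CXCL8 (-2.43) stands below 0 between RASSF6 (1.21) and CXCL6 (-0.07), and CXCL2 (2.33) stands highest at the other end.

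Of 29 other chemokines measured, 3 were higher (10.3%, against 24.0% of all genes), with a list median of -0.05 beside -0.01 for all genes. In limma 0 were lower. At an unadjusted limma p below 0.05, 4 were higher and 4 lower, where 3565 and 3325 of all 19775 genes were. Reference gene scaling, which moved the median of all genes to -0.26, turned the 3 higher and 0 lower calls into 1 higher and 12 lower. That scaling lowered every difference by the same amount, and 14.1% of all called probe sets were then higher, against 51.1% before. CXCL11, which shares CXCR3 with CXCL10, rose by 0.93 (SE 0.09, adjusted p = 0.0031), from 5.98 and 6.13 to 6.93 and 7.05. CXCL9, the third CXCR3 ligand, rose by 0.84 (SE 0.21, adjusted p = 0.042), from 3.99 and 4.52 to 4.92 and 5.28, and CCL26, an eotaxin, by 0.39 (adjusted p = 0.034). CXCL9 and CCL26 did not pass once a single array was dropped, whichever it was (adjusted p 0.053 to 0.26), nor under reference gene scaling (log2 differences of 0.59 and 0.14), and CXCL11 did not pass without knockout 1 (0.054) or knockout 2 (0.063). Among 21 chemokine receptors limma called 0 higher (0 also at an unadjusted p below 0.05) and 2 lower (9.52%): CCR10 by -0.39 and the fractalkine receptor CX3CR1 by -0.36, both dim in both groups and not called with any 1 array left out; 8 receptors were lower under reference gene scaling. CXCR2 (-0.10), the receptor of the neutrophil-attracting ligands, CXCR3 (-0.13) and CXCR1 (0.19) did not pass. CXCR2 was dim too, with a mean reading of 2.79, beside 5.79 for CXCR1 and for CXCR3. CXCR1, CXCR2 and CXCR3 were chosen for naming as receptors of the ligands above after their values were seen.

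AP-1 and C/EBP factors, with ATF3, ATF4 and DDIT3, are transcription factors of stress and inflammation. Of 14 measured, 11 fell and 1 rose (85.7% called, against 24.0% of all genes), with a list median of -0.73; under reference gene scaling 13 were lower and 1 higher. ATF3, a stress-induced partner of AP-1 factors, fell by 2.81 (SE 0.12, adjusted p = 0.00039), from 11.39 and 11.45 to 8.47 and 8.75. On a probe set without a shared-probe mark the ATF3 fall was smaller, with a difference of -0.70 (adjusted p = 0.0048), and it was -2.13 averaged over the gene's probe sets. CEBPB, a C/EBP factor of the acute inflammatory response, fell by 2.17 (SE 0.13, adjusted p = 0.00083), from 12.64 and 12.66 to 10.31 and 10.64. DDIT3 (CHOP), a C/EBP relative, fell by 2.71 (adjusted p = 0.00034) and the AP-1 subunit FOSB fell by 1.87 (adjusted p = 0.027), with its knockout arrays far apart at 6.10 and 7.38 and no call without control 1 or control 2 (adjusted p = 0.14 each). CEBPD rose by 0.65 (adjusted p = 0.0064), but a probe set without a shared-probe mark gave -0.19 (adjusted p = 0.47). Without control 1, 6 members of the list were called lower, without control 2, 7, and without knockout 1 or knockout 2, 5. The factor list was drawn up with earlier results on these arrays known, so its direction is a description.

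NF-kB subunits, inhibitors and kinases went both ways, with 3 of 21 higher, 1 lower (19.0% called, against 24.0% of all genes) and a median of -0.04. Under reference gene scaling 2 were higher and 9 lower. TNFAIP3 (A20), an NF-kB target that restrains the pathway, rose by 0.67 (SE 0.10, adjusted p = 0.0088), from 5.92 and 5.78 to 6.60 and 6.44. The subunit REL rose by 0.53 (adjusted p = 0.0089), NFKBIZ, a nuclear cofactor of NF-kB, by 0.32 (adjusted p = 0.035), and the deubiquitinase CYLD fell by 0.42 (adjusted p = 0.016). The subunit RELA (-0.04) and the inhibitor NFKBIA (0.26), named after their values were seen, did not pass. NFKBIZ was 0.07 under reference gene scaling (adjusted p = 0.48), and CYLD gave -0.06 (adjusted p = 0.76) on a probe set without a shared-probe mark. TNFAIP3 and REL did not pass without control 2 (adjusted p 0.060 and 0.056), knockout 1 (0.091 and 0.093) or knockout 2 (0.073 and 0.084), and NFKBIZ and CYLD passed in none of the fits with 3 arrays (adjusted p 0.060 to 0.18).

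Among 20 inducing cytokines, receptors and adaptors 3 rose and 2 fell (median -0.04). The share called, 25.0%, was near the 24.0% of all genes. Under reference gene scaling 3 were higher and 10 lower. IL1A, interleukin-1 alpha, fell by 1.75 (SE 0.16, adjusted p = 0.0024), from 4.96 on both control arrays to 3.45 and 2.99, while the other IL1A probe set, which lacks a shared-probe mark, gave -0.02 (adjusted p = 0.98) and the mean of both was -0.88 (adjusted p = 0.012). The endotoxin receptor TLR4 rose by 0.66 (adjusted p = 0.0079), the adaptor MYD88 by 0.57 (adjusted p = 0.0072) and the interleukin-1 receptor subunit IL1RAP by 0.56 (adjusted p = 0.0070). The other fall was that of the TNF receptor TNFRSF1A (-0.40, adjusted p = 0.041), named because the count is small. IL1B (-0.02) and TNF (0.05), the usual inducers of these chemokines, were also named after their values were seen and did not pass. TLR4, MYD88 and IL1RAP did not pass without knockout 1 or knockout 2 (adjusted p 0.073 to 0.097), MYD88 also not without control 2 (0.050), and TNFRSF1A in none of the fits with 3 arrays (0.083 to 0.23).

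In the list of interferon and JAK-STAT genes around CXCL10, 1 of 15 rose and 4 fell (33.3% called, against 24.0% of all genes, median -0.01). Under reference gene scaling 8 were lower. IFNB1, interferon beta, rose by 0.72 (SE 0.11, adjusted p = 0.010), from dim readings of 3.36 and 3.52 to 4.05 and 4.28; with readings under 4 set to 4 its difference was 0.16 (adjusted p = 0.48). The kinases JAK1 and JAK2 fell by 0.85 (adjusted p = 0.0028) and 0.44 (adjusted p = 0.018), the inhibitor SOCS1 fell by 0.44 (adjusted p = 0.041), and the interferon signalling factor IRF9 fell by 0.30 (adjusted p = 0.045; 0.064 when probe sets with a shared-probe mark were left out). The induced factor IRF1 (0.26) did not pass. In the fits with 3 arrays IFNB1, JAK2, SOCS1 and IRF9 did not pass (adjusted p 0.052 to 0.24), and JAK1 did not pass without knockout 1 (0.055) or knockout 2 (0.061).

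Regulators of AU-rich transcripts control how long chemokine mRNAs last. Of 9 measured, 4 rose and 1 fell (55.6% called, against 24.0% of all genes, median 0.28). This split became 1 higher and 3 lower under reference gene scaling. ZFP36 (tristetraprolin), which promotes decay of such mRNAs, fell by 0.48 (SE 0.09, adjusted p = 0.015), from 10.73 and 10.70 to 10.16 and 10.30. Its relative ZFP36L2 rose by 0.84 (SE 0.11, adjusted p = 0.0056), the stabilizing ELAVL1 by 0.40 (adjusted p = 0.018), HNRNPD by 0.39 (adjusted p = 0.025; 0.19 with adjusted p = 0.38 on a probe set without a shared-probe mark) and KHSRP by 0.31 (adjusted p = 0.049). Under reference gene scaling the last 3 were 0.15, 0.14 and 0.06 and did not pass (adjusted p 0.16, 0.21 and 0.57), and none of the 4 rises passed without knockout 1 or knockout 2 (adjusted p 0.077 to 0.23). ZFP36 did not pass in any fit with 3 arrays (0.072 to 0.11).

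Of 12 proteases that shed or trim chemokines, 1 rose and 3 fell (33.3% called, against 24.0% of all genes, median -0.02). Under reference gene scaling 5 were lower. ADAM17, a sheddase of CXCL16, fell by 0.84 (SE 0.08, adjusted p = 0.0025), from 9.46 and 9.43 to 8.64 and 8.56, while ADAM10 (-0.03) did not pass. The related ADAM9 fell by 0.39 (adjusted p = 0.028). MMP1, the interstitial collagenase, fell by 3.39 (adjusted p = 0.00028) and MMP7, an epithelial matrix protease, rose by 1.62 (adjusted p = 0.00053). MMP1 and MMP7 passed in all 4 fits with 3 arrays. ADAM17 did not pass without knockout 1 (0.052) or knockout 2 (0.058), and ADAM9 in none of them (0.054 to 0.17).

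**Figure D4:**
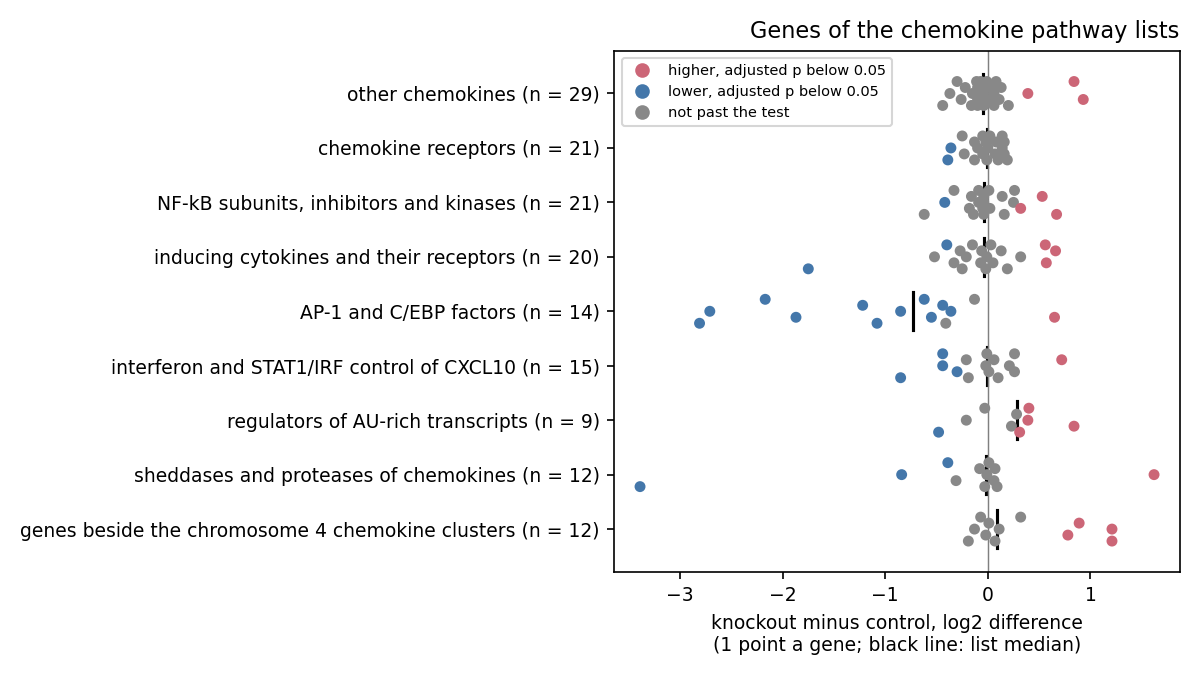
Knockout minus control log2 difference (horizontal axis) of each measured gene in the 9 pathway lists, with colour giving the call, a black line the list median and n the genes measured. The AP-1 and C/EBP list has its median at -0.73, and the other medians lie between -0.05 and 0.28.

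The epithelial identity of the cells was checked on 8 markers. KRT18, KRT8 and EPCAM read 13.25, 12.26 and 12.50 on average and CLDN18 4.60. Of the 8, KRT19 rose by 0.61 (adjusted p = 0.0057) and KRT8 by 0.49 (adjusted p = 0.026), while TFF1 fell by 3.37 and CLDN4 fell by 0.46 (adjusted p = 0.012), and the other 4 did not pass. Of 9 leukocyte markers 1 fell (CSF1R, -0.63), which is 11.1% called, against 24.0% of all genes, and limma called 0 higher. At an unadjusted limma p below 0.05, 1 was higher and 4 were lower. LYZ, which gastric glands also make, read 12.33, and the other 8 read 2.98 to 6.07, summing on the log2 scale to 36.9 and 38.1 in control cells and 36.6 and 36.0 in knockout cells. Of 8 fibroblast markers 4 rose (COL1A1, LUM, COL3A1 and FAP) and 1 fell (PDGFRA), which is 62.5% called, against 24.0% of all genes. The 8 summed to 38.3 and 39.6 in control cells and to 41.9 and 42.6 in knockout cells. DCN (0.12), PDGFRB (0.06) and COL1A2 (-0.31, knockout arrays below control arrays) did not pass. Of 5 endothelial markers limma called 0 (0 also at an unadjusted p below 0.05). The part of these shifts in the chemokine differences was not tested, and fewer cells making a transcript cannot be told apart from less of it per cell. PRMT6 itself, read by 1 probe set, stood at 8.03 and 8.11 in control cells and 7.79 and 7.63 in knockout cells (-0.36, adjusted p = 0.043); its position relative to the edit was not analysed here.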

How the data were processed

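Total RNA of the 4 samples was labelled with biotin by a kit primed at the 3′ end and hybridised to expression arrays, per the labels' protocols. The authors deposited log2 intensities of 54613 probe sets; per the submitters' processing notes RMA and affy were used (versions not given in the sources used here), and their range and medians (5.01 to 5.02 per array) are those of a log2 scale. RMA equalizes the arrays' distributions, so a difference is relative to other transcripts, and it compresses differences of dim probe sets. Precision is limited by the number of arrays.

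Gene names came from the platform annotation, with symbols updated by Entrez number to RefSeq (GRCh38.p14): 41091 had 1 symbol (41037 matched RefSeq), 1801 several and 11721 none. Groups came from the sample labels. The comparison used limma 3.58.1 under R 4.3.3 (linear model and empirical Bayes, no covariates, 2 residual degrees of freedom, no filter), once over all probe sets and once over 19775 genes, each by its probe set of highest mean. P-values were adjusted by the Benjamini-Hochberg method over each whole table, and a call needs an adjusted p below 0.05. Differences are knockout minus control. The script was tested on simulated data.

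Named were the 10 genes, in each list the 4 called genes with the largest difference (or the 2 largest where none was called) and PRMT6; other names were chosen after values were seen, to spell out small counts, genome neighbours, ligand-receptor partners or markers. The members, lists and motifs were chosen with earlier results of these data known. Alternatives were reference gene scaling, an intensity trend, the replicate number as a block, leaving out each array, brighter probe sets, a floor, and other probe sets per gene.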

Additional observations from a re-analysis of the deposited data

How the results depend on the processing

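Scaling to 10 reference genes (12 were listed) moved the median of all probe sets from 0.00 to -0.25 and the share of higher among called probe sets from 51.1% to 14.1%. Under it the CXCL5 differences became -0.01, -0.18 and -0.16, CXCL16 -0.09 and CCL2 -0.19, none past the test, CCL20 was no longer called (0.27), and 69 instead of 24 list genes were lower. CXCL8, CXCL2 and CXCL10 kept direction and call there. With the replicate number as a block, the probe sets of CXCL1 (0.72, adjusted p = 0.051) and CCL20 (0.52, adjusted p = 0.056) were not called and 4 probe sets were higher. In the limma fit of 1 probe set per gene with this block both genes stayed called (adjusted p 0.025 and 0.029). Replicate differences of the groups correlated at 0.233 across probe sets, and the numbers are not known to pair samples. With readings under 4 set to 4, 3 probe sets and 3 genes were higher, 12 list genes higher and 12 lower (20 and 24 without it), and CXCL1 (0.72), CXCL2 on 1569203_at (1.23) and CCL20 (0.00, by construction) were not called. Among list genes this floor also ended the calls of CXCL9, CCL26, CCR10, CX3CR1, TNFAIP3, TLR4, TNFRSF1A, FOS, FOSB, FOSL1, FOSL2, JUND, IFNB1, JAK2, SOCS1, ZFP36, ZFP36L2, HNRNPD, KHSRP, ADAM9 and MTHFD2L. Some of these, such as FOS and TNFRSF1A, had no reading under 4, and their differences stayed at -0.55 and -0.40. For such genes the floor changed the fit shared with other genes and not their own readings. The block ended the calls of CCL26, CCR10, CX3CR1, NFKBIZ, TNFRSF1A, FOSL2, IRF9, SOCS1 and KHSRP. Averaging a gene's probe sets ended those of CYLD, FOSL2, CEBPD, SOCS1, ELAVL1, KHSRP and ADAM9, and an intensity trend those of CCR10 and CX3CR1. The trend changed no call among the 15 chemokine probe sets, nor did the limit to probe sets brighter than the median among the 7 it kept. Among probe sets without a shared-probe mark 0 of the 10 genes were lower, because CXCL8 has none, CEBPD reversed to -0.19, and CYLD, IL1A, HNRNPD (0.19) and IRF9 (-0.30) were not called.

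With 1 array left out, its group's remaining array is assumed to vary like those of the other group. In these fits 0 probe sets were called higher and 0 lower, since limma called none of all probe sets. The differences ranged over 0.58 to 0.87 for CXCL1, 1.07 to 1.44 and 2.33 to 2.34 for 2 CXCL2 probe sets, 0.85 to 0.88 for CXCL3, -2.55 to -2.32 and -2.84 to -2.71 for CXCL8, 1.65 to 1.73 for CXCL10 and 0.40 to 0.64 for CCL20. Signs changed where no call stood, with -0.01 to 0.15 and -0.03 to 0.20 for CXCL5, -0.20 to 0.06 for CXCL6 and -0.15 to 0.27 for CCL2. By gene, 2 to 5 were higher, and 2 to 13 list genes were higher and 7 to 11 lower. Apart from the settings that follow from their construction, the cause was not tested.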
